A study of Mus musculus with 10 samples.

Results

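Loss of the transcription factor Runx1 was measured in a pair of sorted bone-marrow progenitor populations of the mouse, and the question taken up here is which genes responded differently in one population than in the other. The 8 libraries of these 4 groups, out of 10 in the series, were used. For every gene the change from wild type to Runx1-deleted cells in GMP (granulocyte-monocyte progenitors) was compared with the same change in MEP (megakaryocyte-erythroid progenitors). The change in GMP minus the change in MEP is called the difference of effects. It was fitted on the log2(RPKM + 1) scale, where RPKM is the read number scaled by gene length and library size, so changes of low genes are understated. Of 23240 genes in the table, 10783 reached 1 RPKM in at least 2 of the 8 libraries and were tested, and a gene was called where its p, adjusted by the Benjamini-Hochberg method over all of these, was under 0.05. Called genes were then sorted by the pattern of their 4 group levels.

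Wild-type GMP and wild-type MEP came from mice with intact Runx1 (Runx1wt/wt) that carried Tg(vav-Cre). Runx1-deleted GMP and Runx1-deleted MEP (Runx1Δ/Δ) came from Runx1fl/fl mice with the same transgene, so Cre was present in all 4 groups. The vav promoter drives Cre throughout the blood system, stem cells included. All gates were lin- sca- kit+ CD41- CD105-. GMP were CD16/32+ CD150- and MEP were CD16/32- CD150+. Each group holds 2 libraries, and the labels do not say that these come from separate animals, so p-values measure the spread between libraries, which may be technical. No source used here gives age, sex or the number of animals pooled.

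RUNX1 binds DNA together with its partner CBFb and acts as an activator at some genes and as a repressor at others. In adult marrow it is known for its part in megakaryocyte maturation and in the formation of granulocytes, mast cells and basophils. GMP give rise to neutrophils, monocytes and, in the classical scheme, to basophils, eosinophils and mast cells. MEP give rise to megakaryocytes, the source of platelets, and to red cells. A gene that responds in one gate alone may be one that only that gate transcribes, or one that both transcribe and only one alters.

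The gates carried the transcripts of their lineages in both genotypes. Mpo, a granule enzyme of the granulocyte line, was 3743 to 5644 RPKM in the 4 GMP libraries and 6.42 to 13 RPKM in the 4 MEP libraries. Gata1, a regulator of the red cell and megakaryocyte lines, was 7.94 to 11.6 RPKM in GMP and 103 to 128 RPKM in MEP. Runx1 itself was 28.5 and 26.8 RPKM in wild-type and 63.0 and 72.3 RPKM in deleted GMP, and 17.2 and 25.5 RPKM in wild-type and 41.5 and 36.8 RPKM in deleted MEP. Its transcript was thus higher in both deleted groups, and a level over the whole gene does not check the loss of an exon; the difference of effects was 0.39 (log2, adjusted p = 0.978). Each library rested on 20.85 to 54.91 M reads, worked back from the RPKM values. The Runx1 effect moved with gene length in both gates (Spearman's rho across 10781 genes 0.46 in GMP and 0.45 in MEP), and the difference of effects much less (rho 0.03). No wild-type GMP library ran in lane 5, which held all deleted libraries, so lane and genotype cannot be told apart in GMP. In sorted bulk cells, fewer cells of a kind and less RNA per cell cannot be told apart.

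The 5 marker genes, of 5 different functions, show 5 ways in which the 2 gates could differ; the shapes of genes high in wild-type GMP or in wild-type MEP alone are not among them. Alox5, which encodes 5-lipoxygenase, the first enzyme of leukotriene synthesis, was 17.4 and 12.1 RPKM in wild-type GMP and 1.97 and 2.22 RPKM in Runx1-deleted GMP. In wild-type MEP it was 3.32 and 3.79 RPKM, and in Runx1-deleted MEP 7.94 and 9.26 RPKM. The groups did not overlap, and their order by genotype was opposite in the 2 gates: Alox5 fell in GMP (log2 -2.32 ± 0.23 SE, adjusted p = 0.00021) and rose in MEP (1.07 ± 0.23, adjusted p = 0.0166). The difference of effects was -3.40 ± 0.32 (adjusted p = 0.000889) and stayed called without any 1 of the 8 libraries. The rise in MEP alone was lost without Runx1-deleted MEP replicate 1 (adjusted p = 0.077) or replicate 2 (0.18).

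Ptgs1 encodes cyclooxygenase-1, the first enzyme of prostaglandin and thromboxane synthesis. Its level was 5.2 and 5.02 RPKM in wild-type and 28.2 and 28.9 RPKM in deleted GMP, and 10.9 and 13.9 RPKM in wild-type and 12.6 and 10.8 RPKM in deleted MEP. Runx1-deleted GMP thus stood above both MEP groups, whose libraries overlapped. Ptgs1 rose in GMP (log2 2.27 ± 0.20, adjusted p = 0.000102), its effect in MEP was -0.07 ± 0.20 (adjusted p = 0.87), and the difference was 2.34 ± 0.28 (adjusted p = 0.0028).

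F2r encodes the thrombin receptor PAR1. It was 3.70 and 3.29 RPKM in wild-type GMP and 34.2 and 38.4 RPKM in Runx1-deleted GMP, against 99.8 and 122 RPKM in wild-type MEP and 143 and 158 RPKM in Runx1-deleted MEP. Wild-type GMP was the low group, and the deleted GMP libraries lay between it and the MEP libraries. F2r rose in GMP (log2 3.05 ± 0.18, adjusted p = 9.37e-06), with an effect of 0.44 ± 0.18 in MEP (adjusted p = 0.213) and a difference of 2.61 ± 0.26 (adjusted p = 0.00101).

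Hpn, which encodes the membrane serine protease hepsin, was 1.54 and 0.865 RPKM in wild-type and 1.88 and 2.07 RPKM in deleted GMP, and 2.16 and 2.37 RPKM in wild-type and 36.0 and 42.6 RPKM in deleted MEP. Only the deleted MEP libraries were high. Hpn rose in MEP (log2 3.62 ± 0.22, adjusted p = 1.95e-05) against 0.45 ± 0.22 in GMP (adjusted p = 0.267), a difference of -3.17 ± 0.31 (adjusted p = 0.000944).

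Vim encodes the intermediate filament protein vimentin, which was transcribed strongly in 3 of the 4 groups. Its level was 310 and 202 RPKM in wild-type and 256 and 325 RPKM in deleted GMP, and 295 and 224 RPKM in wild-type and 55.8 and 62.7 RPKM in deleted MEP. The first 3 groups overlapped and the deleted MEP libraries were the low ones. Vim fell in MEP (log2 -2.10 ± 0.26, adjusted p = 0.000632), its effect in GMP was 0.20 ± 0.26 (adjusted p = 0.676), and the difference was 2.31 ± 0.36 (adjusted p = 0.0121). Leaving out 1 library ended that call for wild-type GMP replicate 2 (adjusted p = 0.0855), Runx1-deleted GMP replicate 2 (0.0647), Runx1-deleted MEP replicate 1 (0.084) or replicate 2 (0.0677), and so did the lack of a filter on low genes (0.0668). The difference of effects of Alox5, Ptgs1, F2r and Hpn kept its call without each library in turn.

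**Figure D1:**
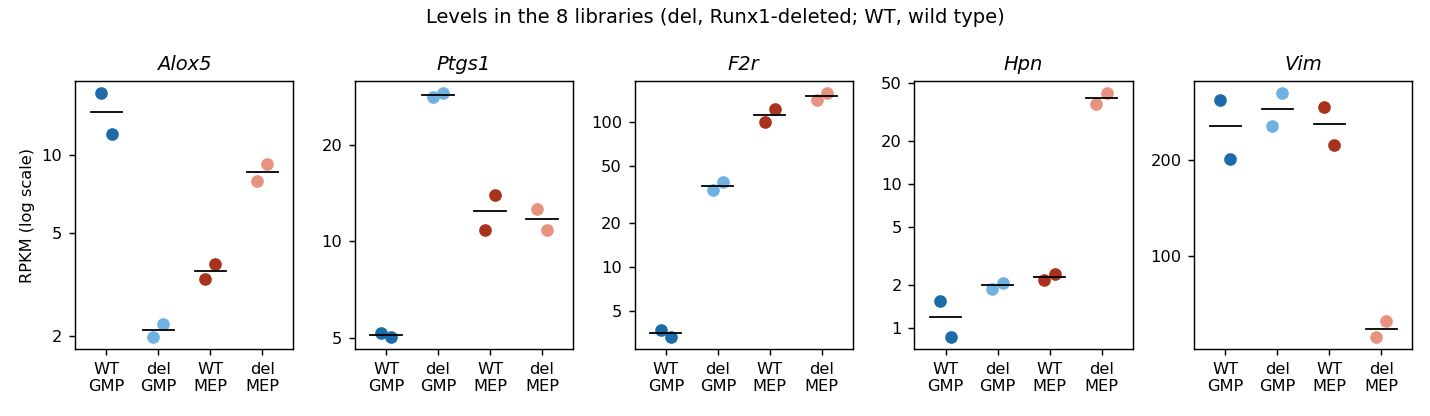
RPKM (log axis, a scale of its own in each panel) of 5 genes in the 8 libraries; each point is 1 library and each bar the mean of the 2 libraries of a group. Alox5 is lower in deleted than in wild-type GMP and higher in deleted than in wild-type MEP, Ptgs1 and F2r are lowest in wild-type GMP, Hpn is high and Vim is low in Runx1-deleted MEP.

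The 250 bases before the RefSeq gene start (build GRCm38.p6, not the mm9 build of the deposited values, and matched by symbol) were read for the 5 genes to show the sequence context of these opposite shapes. Matches were sought to TGTGGT, the core letters bound by RUNX proteins, and to GATAA, core letters bound by GATA factors, each on both strands. The matches are printed in capitals; ACCACA is TGTGGT on the other strand. The windows with a match were those of Alox5 (chr6:116461179-116461428, minus strand), F2r (chr13:95618467-95618716, minus strand) and Hpn (chr7:31115327-31115576, minus strand; the first listed of 2 starts).
Alox5: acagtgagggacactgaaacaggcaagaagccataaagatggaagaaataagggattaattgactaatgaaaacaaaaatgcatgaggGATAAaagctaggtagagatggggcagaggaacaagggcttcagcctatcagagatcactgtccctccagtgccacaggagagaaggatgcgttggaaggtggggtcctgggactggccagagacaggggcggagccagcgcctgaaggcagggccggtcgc
F2r: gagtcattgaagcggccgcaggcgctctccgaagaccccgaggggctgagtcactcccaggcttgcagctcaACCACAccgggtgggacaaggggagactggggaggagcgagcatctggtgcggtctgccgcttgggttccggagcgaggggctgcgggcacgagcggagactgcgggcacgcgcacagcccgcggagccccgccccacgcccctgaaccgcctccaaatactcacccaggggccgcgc
Hpn: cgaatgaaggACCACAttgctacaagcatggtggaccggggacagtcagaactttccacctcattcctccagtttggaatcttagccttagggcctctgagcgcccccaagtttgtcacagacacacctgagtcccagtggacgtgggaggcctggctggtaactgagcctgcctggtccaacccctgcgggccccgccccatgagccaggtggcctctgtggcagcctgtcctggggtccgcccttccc
The Alox5 window held 1 GATAA, 162 bases before the start, and no TGTGGT. The F2r and Hpn windows each held 1 TGTGGT, 178 and 240 bases before the start, and the Ptgs1 and Vim windows held neither motif. For Hpn alone of the 5 genes, the sequence after the start used was not found near the beginning of a GENCODE transcript. TGTGGT was in 14.2% and GATAA in 23.0% of all 27018 promoter windows of this length. Among the 8761 windows of genes tested these shares were 10.8% and 14.4%. A match in 1 window is thus a description of its letters and no more.

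Across all genes, 160 of 10783 were called in the difference of effects (1.48%), of which 83 had a higher effect in GMP than in MEP (0.77%) and 77 a lower one (0.714%). At an unadjusted p under 0.05 there were 987 genes. The direction of all 160 was the same in each of the 16 ways to take 1 library per group. The calls rest on these same 8 libraries, which favours 1 direction, so this is no separate support. By the single contrasts, 483 genes changed in GMP (4.48%), of which 291 rose (2.7%) and 192 fell (1.78%), and 721 in MEP (6.69%), of which 363 rose (3.37%) and 358 fell (3.32%). The count of 160 depended strongly on single libraries: it was 29 without wild-type GMP replicate 2, 36 or 41 without 1 of the Runx1-deleted MEP libraries, 56 to 68 without 1 of the other GMP libraries, and 264 and 417 without wild-type MEP replicate 1 or 2, the group whose replicates correlated least (r = 0.968). Of the 160 genes, 24 were called in all 8 of these fits.

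By the single contrasts, 2 of the 160 genes changed in opposite directions in the 2 gates. Of the others, 42 fell and 39 rose in MEP without a call in GMP, and 31 rose and 31 fell in GMP without a call in MEP. These counts follow in part from the arithmetic, since the difference is made from the same 2 effects. Another 8 fell and 6 rose in both gates, by unequal amounts. Alox5 alone of the 160 fell in GMP and rose in MEP, and Eya2 alone, which encodes a transcriptional co-activator of the eyes absent family, rose in GMP and fell in MEP. Eya2 was 2.74 and 2.21 RPKM in wild-type and 4.97 and 5.17 RPKM in deleted GMP, and 7.09 and 6.65 RPKM in wild-type and 3.49 and 3.82 RPKM in deleted MEP. Its difference was 1.57 (adjusted p = 0.0223). Eya2 was singled out after its values were seen, and its call was lost in 6 of the 8 fits without 1 library (adjusted p = 0.0638 to 0.151), namely those without any 1 GMP or Runx1-deleted MEP library. Its rise in GMP and its fall in MEP (adjusted p = 0.0425 and 0.0432) were each lost in 6 of the 8 fits as well, at up to 0.331 and 0.208.

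**Figure D2:**
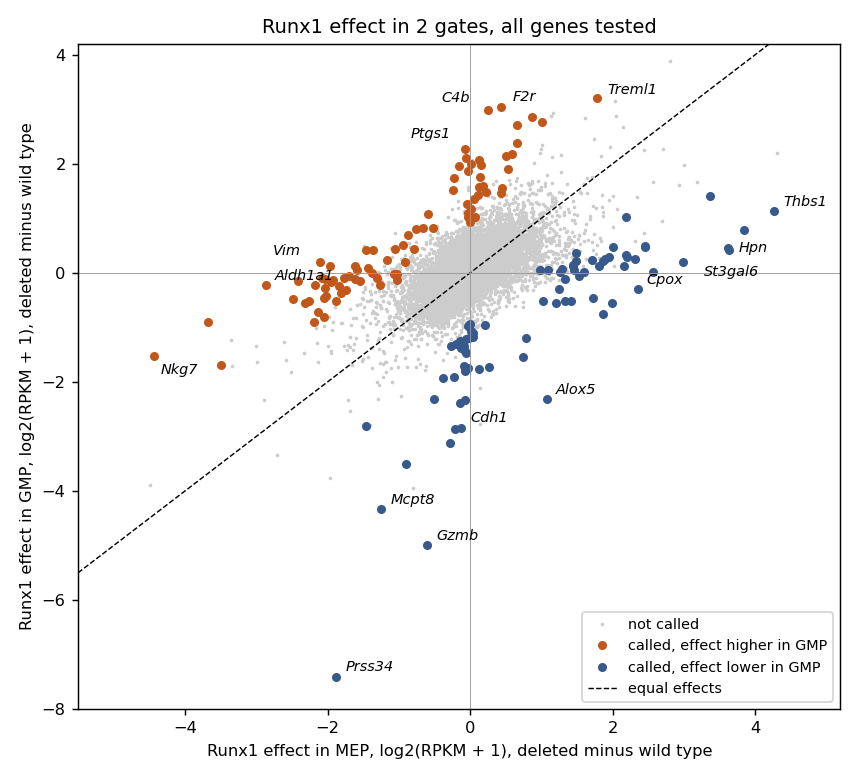
Runx1 effect (deleted minus wild type, log2 of RPKM + 1) in MEP on the x axis and in GMP on the y axis for the 10783 genes tested; each point is 1 gene, called genes are coloured by direction, and the dashed line marks equal effects. Most called genes lie near 1 of the axes, and Alox5 lies at lower right, with a fall in GMP and a rise in MEP.

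Sorted by the widest gap between neighbouring group means, 146 of the 160 called genes (91.25%) had 1 group apart from the other 3, against 6235 of all genes tested (57.8%). The other 14 (8.75%) had 2 groups above 2, against 4548 of all genes (42.2%). A single group that stands apart gives a difference of effects by construction, so these shares describe the called genes and test nothing. Runx1-deleted MEP stood above the other groups for 33 called genes (20.6%, against 9.89% of all genes tested). It stood below them for 25 (15.6% against 6.39%). Wild-type GMP was above the other 3 groups for 29 genes (18.1% against 5.72%) and below them for 10 (6.25% against 9.73%). Runx1-deleted GMP was above for 23 (14.4% against 6.95%) and below for 3 (1.88% against 7.28%). Wild-type MEP was above for 19 (11.9% against 6.74%) and below for 4 (2.5% against 5.13%). In all 160 genes every library above the gap exceeded every library below it. The calls favour genes whose groups lie apart, and the same was not counted over all genes tested, so this too is only a description.

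**Figure D3:**
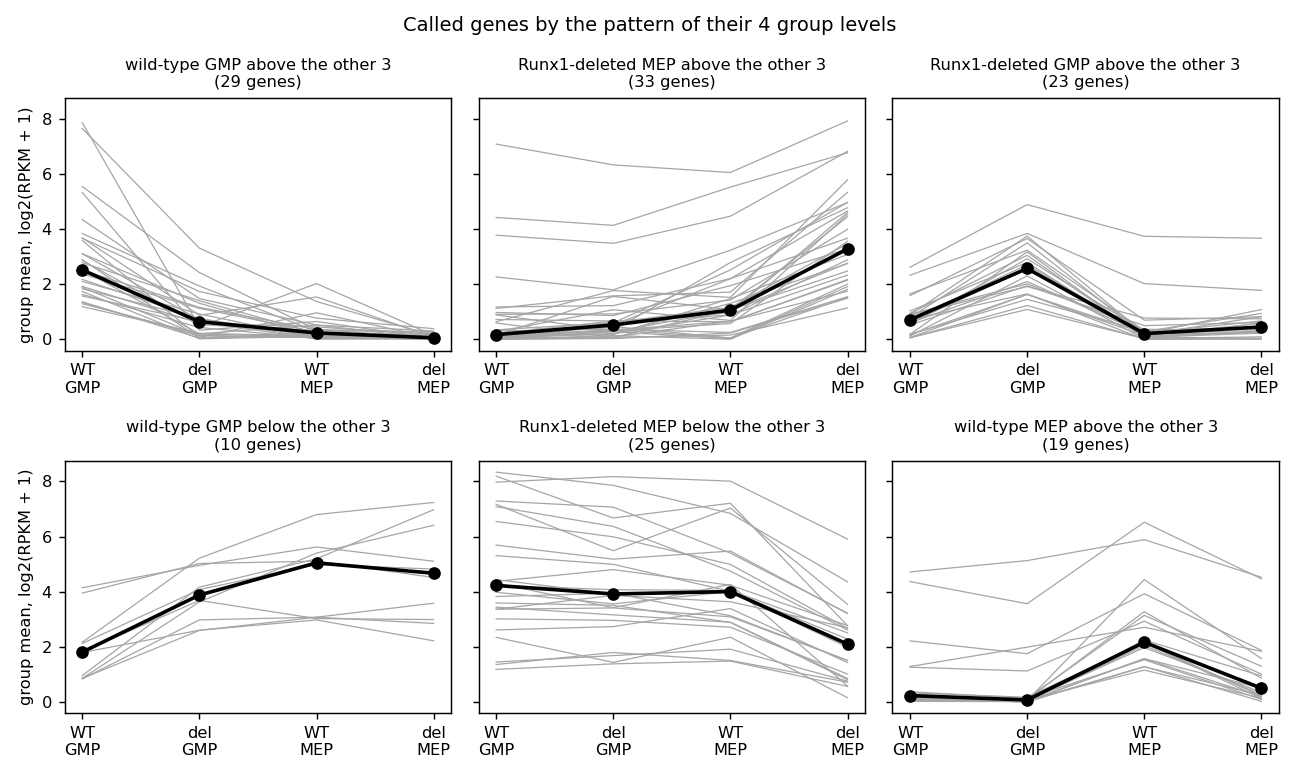
Group means of log2(RPKM + 1) in wild-type (WT) and Runx1-deleted (del) GMP and MEP for the called genes of the 6 most frequent patterns; each grey line is 1 gene and the black line joins the medians. The median of the 29 genes high in wild-type GMP is under 1 in the other 3 groups, whereas that of the 25 genes low in Runx1-deleted MEP is about 4 in the other 3 and about 2 in Runx1-deleted MEP.

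The 29 genes high in wild-type GMP alone were led by Prss34, Gzmb and Mcpt8, all in the list of mast cell, basophil and eosinophil genes. Prss34, which encodes the basophil protease mMCP-11, was 243 and 220 RPKM in wild-type GMP and 0.434 and 0.303 in Runx1-deleted GMP. In MEP it was 4.36 and 2.06 RPKM in wild type and 0.11 and 0.0972 after deletion. It fell in both gates (log2 -7.41 in GMP and -1.88 in MEP, adjusted p = 2.05e-07 and 0.00143), and the difference of -5.53 ± 0.37 was the largest in size of the named genes (adjusted p = 8.23e-05). Gzmb, which encodes the cytotoxic protease granzyme B, was 45.8 and 33.4 RPKM in wild-type GMP and at most 0.563 RPKM in each of the other 6 libraries (difference -4.39 ± 0.28, adjusted p = 8.23e-05). Mcpt8, the basophil protease mMCP-8, was 183 and 217 RPKM in wild-type and 9.29 and 8.5 RPKM in deleted GMP, and 2.39 and 0.971 RPKM in wild-type and 0.0638 and 0.113 RPKM in deleted MEP. Its difference was -3.09 ± 0.37 (adjusted p = 0.0028; 0.449 with a pseudocount of 0.1, a scale that gives low levels more weight).

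Further genes of this pattern were low in all the other groups. Cdh1, which encodes E-cadherin, was 6.20 and 6.58 RPKM in wild-type GMP and at most 0.14 RPKM in the other 6 libraries (difference -2.72 ± 0.21, adjusted p = 0.000234). Chdh, the mitochondrial choline dehydrogenase, was 43.6 and 47.6 RPKM in wild-type and 4.24 and 4.45 RPKM in deleted GMP and at most 0.4 in MEP (-2.84 ± 0.27, adjusted p = 0.000944; 0.117 with a pseudocount of 0.1). Rnase12, a member of the ribonuclease A family, was 21.7 and 17.1 RPKM against 2.79 and 1.04, and at most 0.565 in MEP (-2.65 ± 0.39, adjusted p = 0.00879). Fcnb, the secreted lectin ficolin B, was 10.6 and 16.6 RPKM against 2.50 and 3.14, and at most 0.31 in MEP (-1.67 ± 0.32, adjusted p = 0.029). Prss34, Gzmb, Mcpt8, Cdh1 and Chdh kept their calls without each library in turn. Rnase12 lost its call without wild-type GMP replicate 1 (adjusted p = 0.0637) or 2 (0.0645) or Runx1-deleted MEP replicate 1 (0.0707) or 2 (0.0738). Fcnb lost its call without either Runx1-deleted GMP library (0.133 and 0.072), wild-type GMP replicate 2 (0.111), or Runx1-deleted MEP replicate 1 (0.155) or 2 (0.173). Among the other settings, a pseudocount of 0.1 (0.0962 for Rnase12 and 0.772 for Fcnb) and 3 others for Rnase12 (up to 0.078) and 4 others for Fcnb (up to 0.13, with 0.0625 under a block by library number) also ended these calls.

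Runx1-deleted MEP stood above the other 3 groups for 33 genes, among them glycan, heme and lipid enzymes and an adhesive glycoprotein. St3gal6, a sialyltransferase of the cell surface, was 0.126 and 0.12 RPKM in wild-type and 0.355 and 0.654 RPKM in deleted GMP, and 0.949 and 0.955 RPKM in wild-type and 20.4 and 26.5 RPKM in deleted MEP. It rose in MEP (log2 3.63 ± 0.20, adjusted p = 1.95e-05) and the difference was -3.22 ± 0.28 (adjusted p = 0.000593). Cmah, which makes the sialic acid Neu5Gc, was 8.67 and 13.3 RPKM in Runx1-deleted MEP and at most 0.628 in the other 6 libraries (-2.79 ± 0.30, adjusted p = 0.00146; 0.0618 with a pseudocount of 0.1). St3gal6 and Cmah both kept their calls without each library in turn.

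Alox12, the platelet-type 12-lipoxygenase, was 25.2 and 19.1 RPKM in Runx1-deleted MEP, 0.643 and 0.567 in wild-type MEP and at most 2.15 in GMP (-3.05 ± 0.46, adjusted p = 0.00971). Thbs1, which encodes the platelet granule protein thrombospondin-1, was 57.2 and 51.2 RPKM against 1.71 and 2.02 in wild-type MEP (-3.14 ± 0.63, adjusted p = 0.0367). In Runx1-deleted GMP the 2 libraries of Thbs1 differed, at 0.876 and 5.17 RPKM. The Alox12 call was lost without wild-type GMP replicate 1 (adjusted p = 0.076) or 2 (0.0855) or Runx1-deleted MEP replicate 1 (0.0762) or 2 (0.0508). That of Thbs1 was lost without these same libraries (0.184, 0.135, 0.191 and 0.173) or wild-type MEP replicate 1 (0.0624). A pseudocount of 0.1 ended both calls (0.173 for Alox12 and 0.354 for Thbs1), as did 3 other settings for Alox12 (up to 0.0895) and 6 for Thbs1 (up to 0.288).

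Cpox, coproporphyrinogen oxidase of heme synthesis, was present in all groups. It was 11.7 and 13.8 RPKM in wild-type and 8.92 and 11.6 RPKM in deleted GMP, and 17.2 and 25.8 RPKM in wild-type and 128 and 97.8 RPKM in deleted MEP. Cpox rose in MEP (log2 2.35 ± 0.24, adjusted p = 0.000212) and its effect in GMP was -0.29 ± 0.24 (adjusted p = 0.499). The difference was -2.65 ± 0.34 (adjusted p = 0.00419; 0.0645 without wild-type GMP replicate 2). Cd24a, which encodes the surface glycoprotein CD24 and was picked after its values were seen, was 116 and 155 RPKM in wild-type and 86.2 and 73.0 RPKM in deleted GMP, and 63.3 and 67.2 RPKM in wild-type and 257 and 227 RPKM in deleted MEP. Its difference of -2.63 (adjusted p = 0.00185) kept its call without each library in turn.

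The 25 genes low in Runx1-deleted MEP alone included several that were abundant in the other groups. Nkg7, a granule membrane protein of cytotoxic lymphocytes, was 263 and 323 RPKM in wild-type and 118 and 86.6 RPKM in deleted GMP, and 178 and 122 RPKM in wild-type and 4.08 and 8.11 RPKM in deleted MEP. It fell in both gates (log2 -1.52 in GMP and -4.44 in MEP, adjusted p = 0.0136 and 3.58e-05), with a difference of 2.92 ± 0.42 (adjusted p = 0.008). The difference was lost without wild-type GMP replicate 1 (adjusted p = 0.0638) or 2 (0.069) and with no filter on low genes (0.068). Its fall in GMP was lost without wild-type GMP replicate 1 (0.0663) or 2 (0.21) or Runx1-deleted GMP replicate 2 (0.129).

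Ltb was another of the 25. Anxa1, in contrast, was one of the 6 called genes with both GMP groups above both MEP groups, and its MEP levels differed by genotype. Anxa1, which encodes the lipid-binding protein annexin A1, was 117 and 106 RPKM in wild-type and 93.3 and 79.5 RPKM in deleted GMP, and 13 and 15.2 RPKM in wild-type and 3.21 and 3.40 RPKM in deleted MEP (1.44 ± 0.26, adjusted p = 0.0227). Ltb, the cytokine lymphotoxin beta, was 4.31 and 6.04 RPKM, 4.27 and 7.38, 11.6 and 7.70, and 1.78 and 1.60 in these groups (2.08 ± 0.39, adjusted p = 0.029). Both fell in MEP (adjusted p = 0.000212 and 0.00167) and neither was called in GMP (0.276 and 0.83). The Anxa1 call was lost in the 6 fits without any 1 GMP or Runx1-deleted MEP library (adjusted p = 0.076 to 0.167). That of Ltb was lost without wild-type GMP replicate 1 (0.141) or 2 (0.117), Runx1-deleted GMP replicate 2 (0.154), or Runx1-deleted MEP replicate 1 (0.139) or 2 (0.173). Other settings that ended the call were 2 for Anxa1 (0.0656 and 0.108) and 4 for Ltb (up to 0.138, with 0.0538 under a block by library number).

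Runx1-deleted GMP stood above the other 3 groups for 23 genes. Cd200r4, a receptor of the CD200 receptor family, was 0.723 and 0.988 RPKM in wild-type and 12.6 and 12.2 RPKM in deleted GMP, and 0.145 and 0.155 RPKM in wild-type and 0.992 and 1.24 RPKM in deleted MEP. It rose in GMP (log2 2.86 ± 0.18, adjusted p = 1.01e-05) and, from a lower level, in MEP (0.88 ± 0.18, adjusted p = 0.0135; 0.065 and 0.161 without Runx1-deleted MEP replicate 1 or 2). The difference was 1.98 ± 0.25 (adjusted p = 0.00417). It kept its call without each library but had an adjusted p of 0.249 with a pseudocount of 0.1, where low levels weigh more. Ifitm7, of the interferon-induced transmembrane family, was 1.33 and 0.579 RPKM in wild-type and 8.21 and 6.37 RPKM in deleted GMP and at most 0.0725 in MEP (2.16 ± 0.29, adjusted p = 0.00647; 0.0548 and 0.051 without Runx1-deleted MEP replicate 1 or 2).

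The replicates of 3 further genes of this pattern were less even. C4b, complement component 4, was 0.0838 and 0.178 RPKM in wild-type and 13.1 and 4.77 RPKM in deleted GMP and at most 0.368 in MEP (2.74 ± 0.46, adjusted p = 0.0171). Tmprss3, a transmembrane serine protease, was 0.931 and 0.549 RPKM, then 12 and 8.77, and at most 1.41 in MEP (2.05 ± 0.40, adjusted p = 0.0337). Fn1, fibronectin, was 0.758 and 0.513 RPKM, then 4.11 and 7.27, and at most 0.293 in MEP (1.98 ± 0.32, adjusted p = 0.0159). All 3 calls were lost without wild-type GMP replicate 1 or 2 or Runx1-deleted MEP replicate 1 (adjusted p = 0.0991, 0.124 and 0.117 for C4b, 0.0993, 0.235 and 0.129 for Tmprss3, 0.0638, 0.123 and 0.0638 for Fn1). C4b and Fn1 were also lost without Runx1-deleted MEP replicate 2 (0.09 and 0.118), and Tmprss3 without Runx1-deleted GMP replicate 1 (0.101). A pseudocount of 0.1 ended all 3 (0.0618 for C4b, 0.669 for Tmprss3 and 0.114 for Fn1), as did 4 other settings for C4b (up to 0.166), 6 for Tmprss3 (up to 0.167, with 0.11 when all 10 libraries were fitted) and 4 for Fn1 (up to 0.0961).

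The 10 genes low in wild-type GMP alone included genes of platelets and of stem cells. Tek, the angiopoietin receptor TIE2, was 1.02 and 0.577 RPKM in wild-type and 7.06 and 6.69 RPKM in deleted GMP, and 6.24 and 8.80 RPKM in wild-type and 11.7 and 10.3 RPKM in deleted MEP (1.63 ± 0.32, adjusted p = 0.0358). That call was lost in the 6 fits without any 1 GMP or Runx1-deleted MEP library (0.0794 to 0.212), and under 5 other settings (up to 0.145, with 0.0719 under a block by library number).

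Treml1, a receptor of platelet granules, was 1.11 and 0.786 RPKM in wild-type and 14.3 and 20.1 RPKM in deleted GMP, and 38.9 and 32.6 RPKM in wild-type and 129 and 121 RPKM in deleted MEP. It rose in both gates, by 3.21 ± 0.21 in GMP and 1.78 ± 0.21 in MEP on the log2 scale (adjusted p = 1.66e-05 and 0.000573). The difference of 1.43 ± 0.30 (adjusted p = 0.0459) was near the threshold and was lost in the 7 fits that left out 1 library other than wild-type MEP replicate 2 (adjusted p = 0.0562 to 0.304). With a pseudocount of 5 its adjusted p was 1, and 6 other settings ended the call too (0.0523 to 0.148).

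Wild-type MEP stood above the other 3 groups for 19 genes. Aldh1a1, a retinaldehyde dehydrogenase, was 17.1 and 25 RPKM in wild-type MEP, 2.16 and 1.80 in Runx1-deleted MEP and at most 0.26 in GMP. It fell in MEP (log2 -2.87 ± 0.21, adjusted p = 4.24e-05), and with an effect of -0.23 ± 0.21 in GMP (adjusted p = 0.55) the difference was 2.63 ± 0.30 (adjusted p = 0.00189; 0.105 with a pseudocount of 0.1). Lim2, named for a lens membrane protein, was 11.8 and 6.31 RPKM in wild-type MEP, 0.618 and 1.04 in Runx1-deleted MEP and at most 0.377 in GMP (2.27 ± 0.38, adjusted p = 0.0168). The Aldh1a1 call held without each library in turn. The Lim2 call was lost without wild-type GMP replicate 1 (adjusted p = 0.0574) or 2 (0.128), Runx1-deleted GMP replicate 2 (0.0564), or Runx1-deleted MEP replicate 1 (0.115) or 2 (0.0752), with no filter (0.101) and with a pseudocount of 0.1 (0.313).

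The rarer patterns held few genes. Low in Runx1-deleted GMP alone were Itgb7, the integrin beta 7 chain, Gsn, the actin-severing protein gelsolin, and Cox6b2, a subunit of cytochrome c oxidase. The call of Gsn was lost in most fits without 1 library, and that of Cox6b2 in some. Itgb7 was 24.7 and 17.2 RPKM in wild-type and 6.96 and 10.1 RPKM in deleted GMP, and 16.7 and 13.7 RPKM in wild-type and 25.3 and 28.2 RPKM in deleted MEP. It fell in GMP (log2 -1.20 ± 0.24, adjusted p = 0.0151), its effect in MEP was 0.78 ± 0.24 (adjusted p = 0.0826), and the difference was -1.98 ± 0.34 (adjusted p = 0.0177). The difference was lost without wild-type GMP replicate 1 (adjusted p = 0.0882) or 2 (0.0645), Runx1-deleted GMP replicate 1 (0.093), or Runx1-deleted MEP replicate 1 (0.0873) or 2 (0.118), and with no filter on low genes (0.0766). The fall in GMP was lost without wild-type GMP replicate 1 (0.112) or Runx1-deleted GMP replicate 1 (0.207).

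Another 3 called genes had wild-type GMP and Runx1-deleted MEP above the other groups, the crossed shape that 71 of all genes tested had. They were Alox5, Sept1, which encodes a septin, and Ptger4, which encodes the prostaglandin E2 receptor EP4. Sept1 was 48.9 and 51.3 RPKM in wild-type and 36.3 and 32.8 RPKM in deleted GMP, and 31.2 and 31.8 RPKM in wild-type and 57.4 and 74.3 RPKM in deleted MEP (difference -1.55, adjusted p = 0.0173). Ptger4 was 4.52 and 4.93 RPKM, 3.41 and 2.44, 1.46 and 1.96, and 4.85 and 5.67 in these groups (-1.76, adjusted p = 0.018). Both rose in MEP (adjusted p = 0.00715 and 0.00621), and their effects in GMP were not called (0.144 and 0.174). The opposite cross was called for Cd180 alone, a toll-like receptor homologue, at 6.02 and 5.49, 11.2 and 10.7, 7.19 and 11, and 5.24 and 5.35 RPKM (1.48, adjusted p = 0.0496). The difference of Sept1 was lost without any 1 GMP library or Runx1-deleted MEP replicate 2 (adjusted p = 0.0709 to 0.124), and that of Ptger4 without any 1 of these libraries or Runx1-deleted MEP replicate 1, Runx1-deleted GMP replicate 1 excepted (0.0727 to 0.137). Cd180 lost its call without any 1 GMP or Runx1-deleted MEP library (0.138 to 0.252). The rises of Sept1 and Ptger4 in MEP were lost without Runx1-deleted MEP replicate 2 (0.079 and 0.0906).

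Low in wild-type MEP alone were Papss2, Slc22a4, Atp6v0a1 and Clec9a, with differences of -2.03, -1.91, -1.85 and -1.65. The calls of Slc22a4, Atp6v0a1 and Clec9a were each lost in most fits without 1 library. Papss2, which makes the sulfate donor PAPS, was 10.4 to 14.5 RPKM in the 4 GMP libraries, 0.478 and 0.511 in wild-type MEP, and 5.14 and 6.29 in Runx1-deleted MEP (adjusted p = 0.0102; 0.0536 to 0.0874 without wild-type GMP replicate 1 or any 1 deleted library). The patterns with both GMP or both MEP groups above held 6 and 3 called genes. Epx, eosinophil peroxidase, was one of the 6, at 41.6 and 25.9 RPKM in wild-type and 10.9 and 7.32 RPKM in deleted GMP and at most 0.536 in MEP (-1.89 ± 0.37, adjusted p = 0.0352). Its call was lost without wild-type GMP replicate 1 (adjusted p = 0.111) or 2 (0.0646), Runx1-deleted GMP replicate 2 (0.179), or Runx1-deleted MEP replicate 1 (0.166) or 2 (0.185), and under 5 other settings (0.0606 to 0.15, with 0.0736 under a block by library number). Lilrb4, an inhibitory receptor of myeloid cells, was the only called gene with both deleted groups above. Its call was lost in most fits without 1 library. No called gene had both wild-type groups above, a shape of 747 of all genes tested.

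Most genes were transcribed in both gates, and a smaller share of these was called. Of 7375 genes with a group mean of at least 5 RPKM in each gate, 49 were called (0.664%), 37 with a higher and 12 with a lower effect in GMP. Of 576 genes that reached 5 RPKM in GMP alone, 28 were called (4.86%), of 522 that did so in MEP alone, 26 (4.98%), and of 2310 that did so in neither, 57 (2.47%). The 49 genes include Ptgs1, Tek, Nkg7, Vim, Cpox, Alox5 and Itgb7. Level and pattern are linked by the scale, since a gene at 0 in a gate has no room to fall there.

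Genes were also read by 19 lists, each by its members called in the difference of effects and by its median beside that of all genes tested (0.01). Of all genes tested, 0.77% were called higher and 0.714% lower, and 987 of 10783 had an unadjusted limma p under 0.05. By the single contrasts 2.7% of all genes tested rose and 1.78% fell in GMP, and 3.37% rose and 3.32% fell in MEP. Of the 20 tested eicosanoid genes, the enzymes and receptors of prostaglandins and leukotrienes, 1 was called higher (Ptgs1) and 4 lower (Alox5, Alox12, Ptgds and Ptger4), with a median of 0.25. The list thus held calls of both directions, and the low ones came from 3 different patterns. Ptgds, prostaglandin D2 synthase, was 1.19 and 1.91 RPKM in wild-type GMP and at most 0.158 in the other 6 libraries (difference -1.15, adjusted p = 0.0416; 0.0688 to 0.179 without any 1 deleted library, replicate 2 of wild-type GMP or replicate 1 of wild-type MEP). Alox5ap, the partner protein of 5-lipoxygenase, was 291 and 221 RPKM in wild-type and 205 and 215 RPKM in deleted GMP, and 98.0 and 68.3 RPKM in wild-type and 45.7 and 45.3 RPKM in deleted MEP, and was not called (0.56, adjusted p = 0.77).

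Of the 26 tested mast cell, basophil and eosinophil genes, 7 were called lower (Prss34, Gzmb, Mcpt8, Rnase12, Fcer1a, Epx and Cma1) and 2 higher (Cd200r4 and Cd200r3), with a median of -0.40. In GMP 13 fell and 3 rose, and in MEP 8 fell and 3 rose. Cpa3 and Hdc, abundant genes that mast cells and basophils also transcribe, were not lower in deleted GMP. Cpa3 was 135 and 95.5 RPKM in wild-type and 228 and 213 RPKM in deleted GMP. Hdc was 110 and 97.1 RPKM in wild-type and 120 and 108 RPKM in deleted GMP. Fcer1a, a chain of the IgE receptor, was 10.2 and 11.8 RPKM in wild-type and 0.106 and 0 RPKM in deleted GMP, and 1.10 and 0.794 RPKM in wild-type and 0.026 and 0.046 RPKM in deleted MEP (difference -2.60, adjusted p = 0.000889). The summed level of the 36 members was 2218 and 2223 RPKM in wild-type and 825 and 1010 RPKM in deleted GMP, and 390 to 425 RPKM in wild-type and 176 to 220 RPKM in deleted MEP. The part that a changed share of basophil or mast cell progenitors in each gate has in these values was not tested.

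The 48 tested megakaryocyte and platelet genes divided. A higher effect in GMP was called for 5 (among them F2r, Gp5, Treml1 and Meis1) and a lower one for 4 (Thbs1, Alox12, Ltbp1 and Cd226), with a median of 0.51. The 4 named first were already at 32.6 RPKM or more in both wild-type MEP libraries, and the 4 named last were at most 2.51 RPKM there and rose in MEP. Gp5, glycoprotein V of the platelet surface, was 0.906 and 0.723 RPKM in wild-type and 10.3 and 12.5 RPKM in deleted GMP, and 41.6 and 40.9 RPKM in wild-type and 89.9 and 78.6 RPKM in deleted MEP (1.76, adjusted p = 0.0102; 0.0543 to 0.0844 without replicate 2 of either GMP group or either Runx1-deleted MEP library). Over the whole list 15 members rose and 1 fell in GMP, and 17 rose and 5 fell in MEP. Gates were sorted as CD41-, yet Itga2b, which encodes CD41, was 34.6 and 28.2 RPKM in wild-type and 84.4 and 71.6 RPKM in deleted GMP, and 133 to 218 in MEP, with a difference of 0.78 (adjusted p = 0.326).

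Erythroid genes leaned the other way. Of 44 tested, 4 were called lower (Cpox, Cited4, Rhag and Cldn13) and 0 higher, with a median difference of -0.55. At an unadjusted limma p under 0.05 there were 19 lower and 5 higher. In MEP 21 rose and 1 fell, and in GMP 6 rose and 1 fell. Rhag, the Rh-associated glycoprotein of the red cell membrane, was at most 0.608 RPKM in GMP, 4.02 and 5.51 in wild-type MEP, and 32.5 and 28.2 in Runx1-deleted MEP (difference -1.97, adjusted p = 0.00971; 0.0574 to 0.0855 without either wild-type GMP library or replicate 1 of either deleted group). Regulators of the line were not called: Klf1 was 3.41 to 5.53 RPKM in wild-type and 1.60 to 2.62 RPKM in deleted GMP, and 93.3 to 123 RPKM in wild-type and 112 to 153 RPKM in deleted MEP (-1.09, adjusted p = 0.29).

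Stem and multipotent progenitor genes had 5 higher calls (Ifitm1, Hmga2, Tek, Meis1 and Ndn) and 0 lower among 36 tested, with a median of 0.60, and 14 higher and 1 lower at an unadjusted limma p under 0.05. Their shapes were unlike: Ifitm1 fell in both gates and more in MEP, from 161 and 127 to 47.4 and 40.5 RPKM in GMP and from 168 and 101 to 13 and 8.66 in MEP. Hmga2, an architectural chromatin protein, rose in GMP from 3.05 and 5.19 to 11.6 and 15.3 RPKM and was 2.36 to 3.43 RPKM in all MEP libraries. Ndn was near 1.4 RPKM in wild-type MEP and under 0.25 elsewhere. Each of these 5 calls was lost in 6 or 7 of the 8 fits without 1 library (adjusted p = 0.0622 to 0.284 where lost). The fall of Ifitm1 in GMP was lost without wild-type GMP replicate 1 (0.063), and the rise of Hmga2 in GMP without that library (0.0565) or Runx1-deleted GMP replicate 2 (0.0703). The medians of the erythroid, mast cell, megakaryocyte, stem and eicosanoid lists kept their signs under every alternative setting run.

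**Figure D4:**
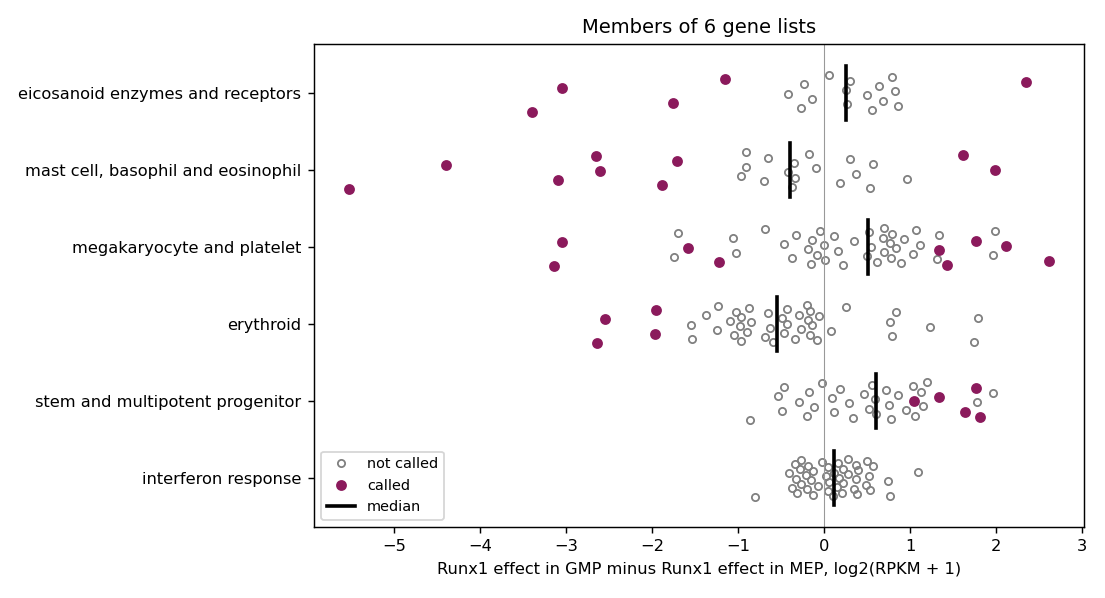
Difference of effects (GMP minus MEP, log2 of RPKM + 1) of the tested members of 6 gene lists; each point is 1 gene, filled where called, and the black bar is the list median. Called megakaryocyte and eicosanoid genes lie on both sides of 0, called erythroid genes on the lower side and called stem cell genes on the higher side, and no interferon gene is called.

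Some members of the lists for cells that the gates should not hold also differed, while the genes checked that define such cells were near 0. Tek is in the stem cell list as well. Of 11 tested stromal and endothelial genes 4 were called higher (Tek, Pdgfrb, Col1a2 and Fn1) and 0 lower, with 4 and 3 at an unadjusted limma p under 0.05. The summed level of the 30 members was 58.2 and 65.9 RPKM in wild-type and 76.0 and 78.6 RPKM in deleted GMP, and 39.4 and 47.7 RPKM in wild-type and 59.5 and 65.6 RPKM in deleted MEP, while defining members such as Cdh5 and Lepr were at most 0.11 RPKM in every library. Pdgfrb, a receptor of platelet-derived growth factor, was 10.4 and 9.29, 8.89 and 7.07, 5.71 and 7.24, and 0.599 and 1.03 RPKM in the same order of groups (1.76, adjusted p = 0.0234; 0.0737 to 0.149 without any 1 GMP or Runx1-deleted MEP library). Of 15 tested lymphoid genes Nkg7 was the only one called, and the list's sum was 312 and 371, 145 and 164, 146 and 207, and 20.8 and 23.6 RPKM, of which Nkg7 made 263 and 323, 118 and 86.6, 178 and 122, and 4.08 and 8.11. Cd3e, which defines T cells, was at most 0.13 RPKM. The part of such cells in the results was not tested.

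The remaining lists gave few or no calls. Protease and protease inhibitor genes had 2 higher (Tmprss3 and Prss50) and 5 lower (Prss34, Gzmb, Hpn, Mcpt8 and Cma1) of 37, cytoskeleton and adhesion genes 2 higher (Vim and Anxa1) and 2 lower (Itgb7 and Gsn) of 50, and neutrophil granule genes 1 lower (Fcnb) of 25. No member was called among 21 monocyte, macrophage and dendritic cell genes, 26 myeloid regulators and cytokine receptors, 18 RUNX genes and partners, 9 sort markers, 30 genes of S phase, 30 of G2 and M phase, 29 of ribosome biogenesis, 26 immediate early and heat shock genes and 44 interferon response genes. With 1.48% of all genes tested called, 0 calls in lists of 9 to 44 genes say little about them. Of the 225 different genes of these lists, 11 were higher and 10 lower in limma at an unadjusted p under 0.05. The monocyte genes held 7 of the latter. That p was under 0.05 for 987 of all 10783 genes tested. The median effects of the interferon list were 0.51 in GMP and 0.38 in MEP, and the median difference was 0.11. Of its 44 members 4 rose in GMP and 7 rose in MEP, and none fell. Over all genes tested the median effects were 0.05 in GMP and 0.03 in MEP, and 2.7% rose in GMP and 3.37% in MEP.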

How the data were processed

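RNA of sorted bone-marrow progenitors was sequenced, and the authors deposited 1 table of RPKM per gene and library (reads scaled by gene length and library size). Per the submitters' processing notes, the build was mm9. Which aligner and counter were used is not given in the sources used here. Sample labels gave the groups. The deposited p-values of the authors' own tests were not used. Values were fitted as log2(RPKM + 1) with limma 3.58.1 in R 4.3.3 (lmFit, contrasts.fit and eBayes with trend, two-sided), 1 mean per group over 8 libraries, 4 residual degrees of freedom, with Benjamini-Hochberg adjustment over 10783 genes. Errors of log2 values are standard errors.

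Each called gene was put in 1 of 14 patterns by the widest gap among its 4 sorted group means. Named genes were the 5 markers, the 12 largest differences in each direction with a group mean of at least 5 RPKM and 1 sign in all 16 choices of 1 library per group, the first called member of each list per direction, and the 2 genes with the widest gap in each pattern of at least 5 genes. The members, the lists and this rule were chosen with earlier results of these data known, and a few genes that met the rule are not reported here. Read totals were recovered from the RPKM steps: values of 16421 genes were whole reads within 0.01 read in all libraries, 3904 genes were at 0 and 2915 could not be solved. On simulated data for this comparison over 10783 genes, 18 of 100 genes with a difference of 1 (log2) and 95 of 100 with a difference of 2 were called, with 10 false calls among 10583. The changed genes were drawn from those above about 5 RPKM in all 4 groups, and the spread was simulated independently for each library. Genes low in a gate, which many called genes are, and shifts shared by the genes of a library were thus not covered. Alternatives were quantile normalization, no trend, a mean filter at 5 RPKM or no filter, pseudocounts of 0.1 and 5, all 10 libraries, blocks by replicate or library number, 1 lane per genotype, removal of the length trend, group weights, and each library left out in turn.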

Additional observations from a re-analysis of the deposited data

Results flagged for a closer look

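For each of the genes below, limma's test of the difference between the GMP effect and the MEP effect of the deletion passed at an adjusted p under 0.05, which is why each is listed here; values are the GMP effect minus the MEP effect on the log2(RPKM + 1) scale. Among genes high in wild-type GMP, the difference was -5.53 for Prss34, -4.39 for Gzmb, -3.09 for Mcpt8, -2.84 for Chdh, -2.72 for Cdh1, -2.65 for Rnase12 and -1.67 for Fcnb. Among genes high in Runx1-deleted MEP, it was -3.22 for St3gal6, -3.17 for Hpn, -3.14 for Thbs1, -3.05 for Alox12, -2.79 for Cmah and -2.65 for Cpox. Alox5, with opposite effects in the 2 gates, had -3.40, Itgb7 had -1.98 and Epx had -1.89.

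Genes with a higher effect in GMP than in MEP were listed for the same reason. Where Runx1-deleted MEP was low, the difference was 2.92 for Nkg7, 2.31 for Vim and 2.08 for Ltb. For Anxa1, high in both GMP groups, it was 1.44. Where wild-type MEP was high, it was 2.63 for Aldh1a1 and 2.27 for Lim2. Where Runx1-deleted GMP was high, it was 2.74 for C4b, 2.34 for Ptgs1, 2.16 for Ifitm7, 2.05 for Tmprss3, 1.98 for Fn1 and 1.98 for Cd200r4. Where wild-type GMP was low, it was 2.61 for F2r, 1.63 for Tek and 1.43 for Treml1. Of these 31 genes, 13 kept their call in all 8 fits that left out 1 library, and 18 lost it in at least 1.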

How the results depend on the processing

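Against 160 genes called in the difference of effects, limma without trend called 102, a pseudocount of 0.1 69, a mean of at least 5 RPKM 51 and group weights 89; leaving out each library in turn gave 29 to 417. In GMP, against 483, a mean of at least 5 RPKM gave 142, group weights 2391 and left-out libraries 173 to 1679. In MEP, against 721, a mean of at least 5 RPKM gave 310, group weights 281, removal of the length trend 1123, wild type of lane 3 against deleted of lane 5 3549, and left-out libraries 270 to 3196. Fewer genes entered the fit with a mean of at least 5 RPKM. The highest GMP counts came from the fits without a wild-type MEP library, which does not enter the GMP effect. The GMP effects were the same there (median 0.046, as in the main fit), and only the spread shared by the groups and its degrees of freedom differed. The cause of the other shifts was not tested. The setting with wild type of lane 3 and deleted of lane 5 kept 1 wild-type library per gate and tied lane to genotype in both gates. It thus cannot tell lane from genotype. Its median difference of effects over all genes was -0.13, against 0.006 in the main fit. The fit with a replicate block called 143, of which 131 were among the 160, and ended the call of Treml1 alone among the 31 named genes. Deviations of libraries with the same replicate number correlated from -0.34 to 0.301, and what these libraries share was not tested. A block by library number, which the column headers give and the labels do not tie to an animal or a day, called 114, of which 111 were among the 160, and ended the calls of Epx, Fcnb, Tek and Ltb. Deviations paired by library number correlated at 0.301 to 0.34 between groups other than wild-type GMP. Between wild-type GMP and the other groups they correlated at -0.111 to 0.058. What libraries paired in this way share was not tested. None of the 31 reversed in any setting run, but few settings could have reversed them. All 31 genes had 1 sign in all 16 choices of 1 library per group, so they could not reverse with a library left out. Nor could they under settings that left the values themselves unchanged, such as the blocks, the group weights, the filters and no trend. They lost their call in 78 of 248 values with a library left out and in 70 of 363 values under other settings, with no filter (15), a pseudocount of 0.1 (14), group weights (10), 1 lane per genotype (10) and 8 further settings (21 in all). With 2 libraries a group, 18 of 100 simulated differences of 1 (log2) were called, for genes above about 5 RPKM in all 4 groups. Most differences of that size would thus be missed in such genes, and the simulation does not cover lower genes.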

Other observations

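Another sorted population, XMP (CD16/32+ CD150+, sorted from Runx1-deleted marrow and without a wild-type counterpart), belongs to no comparison of effects, and its levels are given as values. For 113 of the 160 called genes (70.6%) XMP was nearer to Runx1-deleted MEP than to Runx1-deleted GMP, against 6132 of all 10783 genes tested (56.9%). For 103 (64.4%) the XMP mean lay between these 2 groups, against 44.7% of all genes. Called genes were picked by a difference into which both deleted groups enter, so these shares describe them and test nothing. Of the platelet genes that split in 2 directions in the comparison of gates, 4 had these levels in XMP: F2r was 325 and 306 RPKM, Treml1 338 and 267, Thbs1 182 and 140, and Alox12 37.3 and 21.4. F2r, Treml1 and Thbs1 were above both deleted groups in both XMP libraries. Hpn, which was 36.0 and 42.6 RPKM in Runx1-deleted MEP, was 7.06 and 6.64 RPKM in XMP, and Cpox was 36.0 and 30.1. Alox5 was 7.75 and 5.45 RPKM, Ptgs1 33.1 and 31.5, Vim 102 and 120, and Nkg7 27.9 and 41.5 RPKM.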
